A study of Danio rerio with 6 samples.

Results

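The genes described here are 60 genes of DNA replication and mitosis, chosen by name: the machinery that licenses, unwinds and copies DNA, the enzymes that supply deoxynucleotides, and the cyclins, kinases, checkpoint proteins, motors and chromosome proteins of mitosis. They were measured in whole zebrafish embryos mutant for hand2 (S6 allele) and in their wild-type siblings, 3 arrays of each, at 19 hours post fertilization. On the array, 51 of the 60 genes had a probe set named for them, 67 probe sets in all among 15502 that were not controls. The other 9 (mcm10, rfc2, rrm2, ccne2, aurkb, bub1, ube2c, cenpf and tpx2) had none under those names and were not analysed here. Where a gene had several probe sets, the brightest stood for it, and values of only some of the others are given.

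Mutants were recognised among the offspring of hand2 heterozygotes by the reporter Tg(myl7:egfp), in which a heart muscle promoter drives green fluorescent protein. The sibling group is what did not show the mutant heart, so it can hold heterozygotes as well as homozygous wild-type embryos. All embryos were kept at 28.5 degrees Celsius, and 10 to 25 of them were pooled for each array. The submitters state that 3 separate crosses were used, without tying an array to a cross, so p-values measure the spread between these pools.

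Before a cell divides, a ring of MCM proteins is loaded at origins and then activated with CDC45 and the GINS complex to unwind DNA. A clamp, PCNA, is placed on DNA by replication factor C and holds the polymerases in place. Many of these genes are transcribed ahead of S phase under E2F factors, whereas genes for B-type cyclins, Aurora and Polo kinases and spindle proteins are transcribed later, toward mitosis. At this stage of zebrafish development many tissues, among them the brain and the tail bud, are still dividing, and differentiating muscle and the first neurons have left the cycle.

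No gene of replication or mitosis passed the test for a difference between hand2 mutants and their siblings, and all fitted differences of the brightest probe sets were small. Of the 51 measured genes 0 passed an adjusted p of 0.05 (limma, Benjamini-Hochberg over 11626 probe sets), where 0.0086% of all probe sets did, which is hand2 alone. At an unadjusted p of 0.05 the count was again 0 of 51 in limma, against 3.03% of all probe sets. With the replicate number as a block it was also 0 of 51, against 7.41% of all probe sets. The largest fitted difference among the 51 was -0.33 on the log2 scale, for mcm2. A difference above 0.5 in size was seen in 0 of the 51, by their brightest probe sets. It was seen in 4.71% of all tested probe sets, dimmer ones included. Among further probe sets of these genes, 1 of rfc4 gave -0.54 and 1 of top2a gave 0.61.

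For the brightest probe set of each gene, the data also bound how large a difference in whole-embryo signal could have gone unseen. A larger difference confined to few cells of the embryo is not bounded by them. The 95% interval of the fitted difference, not adjusted for the number of genes, lay between -1 and 1 on the log2 scale for 51 of 51 genes, and between -0.5 and 0.5 for 31 of them. Of all tested probe sets, 90.9% had intervals inside -1 and 1, and 27.8% inside -0.5 and 0.5. The widest interval was that of mcm6, -0.91 to 0.77. The median standard error was 0.15 for the 51 genes and 0.20 for all tested probe sets. All tested probe sets include dimmer ones, so these comparisons are not matched for brightness. On the same arrays hand2 read 52.8, 50.9 and 45.1 in mutants and 348.9, 447.7 and 292.2 in siblings, a log2 difference of -2.51 ± 0.21 (SE; limma, adjusted p = 0.0051). The mutant readings of hand2 were at background, so that size is a fitted value and not an exact one. As hand2 is the mutated gene, its difference does not gauge how small a difference could be seen.

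**Figure D1:**
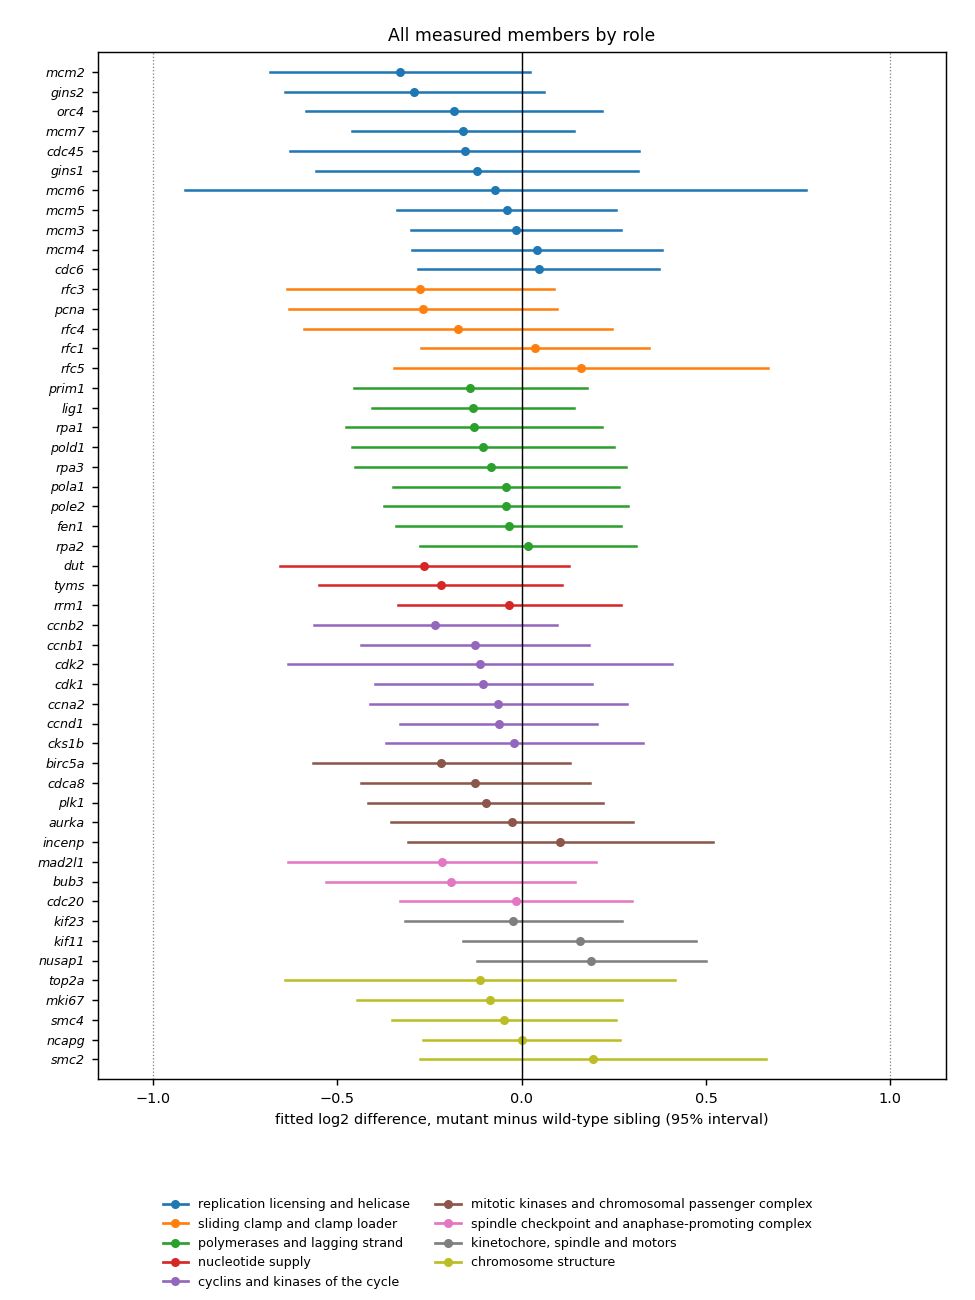
Fitted log2 difference (mutant minus wild-type sibling, log2(signal + 16)) of each of the 51 measured genes, grouped and coloured by role, as points with 95% intervals from limma. The dotted lines mark -1 and 1, and the intervals of all 51 genes, by their brightest probe sets, lie inside them and cross 0.

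Signals are MAS5 intensities, a linear brightness per probe set that the authors scaled to a common trimmed mean on each array. They compare arrays for one probe set and not one probe set with another. The array carries 17 Tag controls, which match no zebrafish transcript and serve here as a gauge of background. On all 6 arrays 50 of the 51 genes read above every one of them. The exception was mcm6, whose reading in mutant replicate 2 lay below that array's highest Tag control, 74.0.

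Of the licensing and helicase genes, 11 of 12 were measured, and their fitted differences ran from -0.33 to 0.05 with a median of -0.12. The gene of smallest p among all 51 was mcm2, a subunit of the MCM2-7 helicase ring. Its signal was 5175, 4395 and 5216 in mutants and 5121, 7189 and 6408 in siblings. Sibling replicate 1 lay inside the mutant range, so the genotypes overlapped. The log2 difference was -0.33 ± 0.16 (SE; limma, adjusted p = 0.942), with a 95% interval of -0.68 to 0.02. At replicate number 1 mutant and sibling differed by 0.02, at number 2 by -0.71 and at number 3 by -0.30.

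The other ring subunits differed less. The signal of mcm7 was 6128, 6023 and 6511 in mutants and 6058, 7586 and 7287 in siblings, a log2 difference of -0.16 ± 0.13 (SE). That of mcm5 was 4760, 4305 and 4675 in mutants and 4727, 4206 and 5245 in siblings, a log2 difference of -0.04 ± 0.13 (SE). Both genes overlapped between genotypes, and the sign of mcm5 turned to 0.03 after quantile normalization. The fitted differences of mcm3 and mcm4 were -0.02 and 0.04. A further probe set of mcm3 gave -0.10 and was lowest in mutant replicate 2, at 236.7. For mcm6 the readings scattered most, at 187.4, 54.5 and 168.0 in mutants and 118.5, 164.7 and 109.8 in siblings. Its difference changed sign between replicate numbers, 0.60 at number 1, -1.36 at number 2 and 0.55 at number 3.

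The GINS subunit gene gins2, part of the active helicase, did not overlap between genotypes. It read 666.5, 551.8 and 763.6 in mutants and 823.9, 803.1 and 787.8 in siblings, a log2 difference of -0.29 ± 0.16 (SE; limma, adjusted p = 0.942). The closest readings, mutant replicate 3 and sibling replicate 3, were 763.6 and 787.8. Its partner gins1 differed by -0.12 and cdc45, the third part of the active helicase, by -0.15. The loader genes cdc6 and orc4, which place MCM rings at origins, differed by 0.05 and -0.18.

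The sliding clamp gene pcna, a common marker of S-phase cells, read 14431, 12457 and 16823 in mutants and 15128, 19513 and 17884 in siblings. Mutant replicate 3 was above sibling replicate 1, and the means of 14570.3 ± 2186 in mutants and 17508 ± 2217 in siblings (SD, n = 3 each) overlapped within 1 SD. The log2 difference was -0.27 ± 0.16 (SE; limma, adjusted p = 0.942). It was -0.0047 after quantile normalization and -0.08 without both arrays of number 2. The clamp loader gene rfc3 read 1010.5, 830.9 and 1076.6 in mutants and 1047.5, 1121.8 and 1373.4 in siblings, a difference of -0.27 ± 0.16 (SE). The loader subunits did not share a direction: rfc4 differed by -0.17, rfc1 by 0.04 and rfc5 by 0.16.

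Of the 9 genes of polymerases and lagging-strand synthesis, all of them measured, 8 had lower fitted values in the mutant and their differences ran from -0.14 to 0.02. These are the primase and polymerase alpha genes prim1 and pola1, which start each strand, pold1 and pole2, which extend them, fen1 and lig1, which trim and join Okazaki fragments, and rpa1, rpa2 and rpa3, which coat single-stranded DNA. Only lig1 among them kept the genotypes apart, at 1586, 1479 and 1620 in mutants and 1651, 1724 and 1758 in siblings, a difference of -0.13.

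The nucleotide supply genes had the lowest median of any role, -0.22 over 3 measured genes. The gene dut, whose enzyme keeps uracil out of DNA, read 6078, 4852 and 7446 in mutants and 6913, 6681 and 8245 in siblings, a log2 difference of -0.26 ± 0.17 (SE; limma, adjusted p = 0.942). Thymidylate synthase, tyms, read 970.6, 823.7 and 1015.3 in mutants and 979.4, 1107.8 and 1188.9 in siblings, a difference of -0.22 ± 0.15 (SE). In both genes mutant replicate 2 was the lowest of the 6 arrays, and mutant replicate 3 overlapped the siblings. The large subunit of ribonucleotide reductase, rrm1, differed by -0.03. The table had no probe set named rrm2, the small subunit; rrm2l, a gene that carries rrm2 among its older names and was looked up after the values were seen, differed by -0.01 ± 0.13 (SE).

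**Figure D2:**
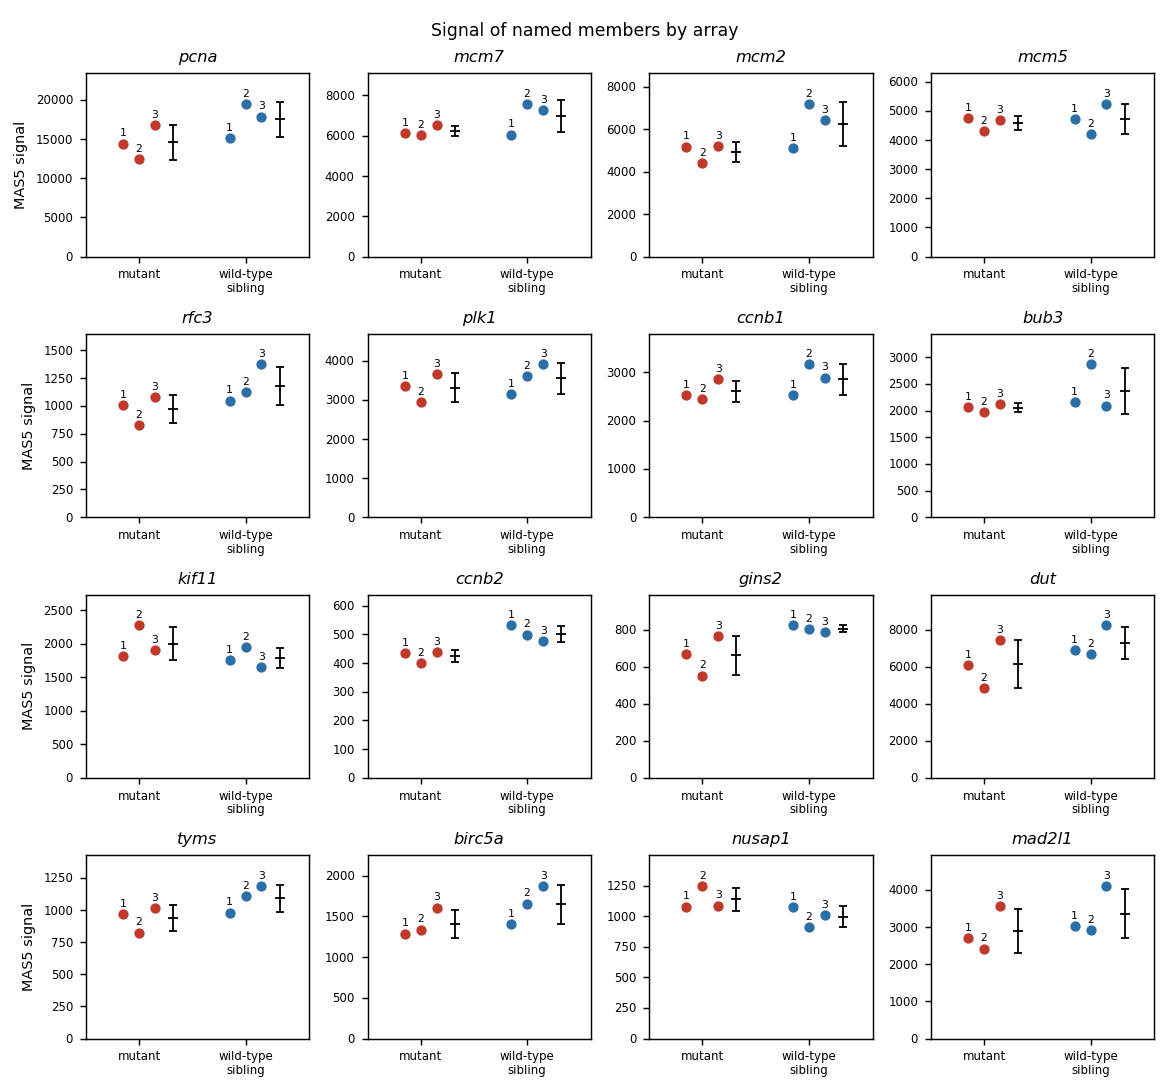
MAS5 signal of 16 genes on each array, mutant arrays in red on the left and wild-type sibling arrays in blue on the right, with the replicate number above each point and mean ± SD (n = 3) as a bar; each axis starts at 0. Mutant replicate 2 is the lowest array for 12 of the 16 genes, all but mcm5, birc5a, kif11 and nusap1, and the highest for kif11 and nusap1.

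The cyclin and kinase genes lay close together: 7 of 7 measured had lower fitted values, between -0.23 and -0.02. The largest was that of ccnb2, a B-type cyclin that drives entry into mitosis with Cdk1. It read 434.3, 400.8 and 439.0 in mutants and 532.1, 498.7 and 476.0 in siblings. The genotypes did not overlap, so the difference necessarily had the same sign at all 3 replicate numbers, -0.28, -0.30 and -0.11. The fitted value was -0.23 ± 0.15 (SE; limma, adjusted p = 0.942). The related ccnb1 read 2525.0, 2451 and 2860 in mutants and 2521, 3164 and 2890 in siblings, overlapping, with a difference of -0.13 ± 0.14 (SE). The kinase genes cdk1 and cdk2 differed by -0.10 and -0.11, and the S-phase cyclin gene ccna2 by -0.06. The G1 cyclin gene ccnd1 did not overlap between genotypes by its brightest probe set, although the fitted difference was only -0.06 and a second probe set gave 0.12.

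Among the mitotic kinases, plk1, the Polo kinase of spindle assembly and cytokinesis, read 3360, 2939 and 3659 in mutants and 3142, 3606 and 3910 in siblings. The ranges overlapped, the difference was -0.10 ± 0.14 (SE), and it came to 0.00043 without both arrays of number 2. The spindle pole kinase gene aurka differed by -0.03. Of the chromosomal passenger genes, whose complex corrects faulty spindle attachments, birc5a (survivin) read 1291, 1338 and 1609 in mutants and 1408, 1658 and 1878 in siblings, a difference of -0.22 ± 0.16 (SE). It was lower in the mutant at every replicate number but overlapped between genotypes. Its partners cdca8 and incenp differed by -0.13 and 0.11.

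The spindle checkpoint holds anaphase until all chromosomes are attached. Its gene bub3 read 2067, 1964 and 2124 in mutants and 2153, 2864 and 2091 in siblings, so that sibling replicate 2 alone stood high. The fitted difference was -0.19 ± 0.15 (SE). A further bub3 probe set gave -0.26, lowest in mutant replicate 2 at 518.9 and highest in mutant replicate 3 at 904.1. The checkpoint gene mad2l1 read 2699.8, 2418 and 3555 in mutants and 3034, 2924 and 4114 in siblings, -0.22 ± 0.19 (SE), and was lower at all 3 replicate numbers. Its difference was -0.06 without sibling replicate 3 and -0.37 without mutant replicate 3. The anaphase activator gene cdc20 differed by -0.01.

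Of the 3 measured kinetochore, spindle and motor genes, 2 had higher fitted values in the mutant. The motor gene kif11, whose product pushes spindle poles apart, read 1818, 2279 and 1907 in mutants and 1757, 1951 and 1658 in siblings, a difference of 0.16 ± 0.14 (SE). It was higher in the mutant at all 3 replicate numbers and overlapped between genotypes. The spindle-associated gene nusap1 read 1079.3, 1249 and 1087 in mutants and 1073.6, 908.5 and 1008.4 in siblings, with no overlap but readings of 1079.3 and 1073.6 at number 1. Its difference was 0.19 ± 0.14 (SE; limma, adjusted p = 0.942), and its other probe sets gave 0.34 and -0.07. The midbody motor gene kif23 differed by -0.02.

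Of the 5 chromosome structure genes, 4 had lower fitted values in the mutant and 1, smc2, a higher one, with a median of -0.05. The condensin subunit genes smc2, smc4 and ncapg differed by 0.19, -0.05 and -0.0003. The proliferation marker mki67 differed by -0.09, and top2a, the topoisomerase that untangles sister chromatids, by -0.11. The smc2 value rested on mutant replicate 2, which read 1277 where the other 5 arrays read between 696.3 and 925.6.

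Several probe sets of one gene allowed a check within the array. Of 11 genes with more than 1 probe set, 6 had the same sign on all tested probe sets and 5 did not, namely ccnd1, kif23, nusap1, smc2 and top2a. The second smc2 probe set read 157.8, 55.9 and 121.7 in mutants and 102.9, 145.3 and 123.2 in siblings, so that mutant replicate 2, the highest array by the first probe set, was the lowest by this one. The 5 probe sets of top2a included values at or near background, and the 4 tested ran from -0.18 to 0.61. The second probe set of rfc4 had the largest negative difference of any probe set here, -0.54 ± 0.32 (SE), and again mutant replicate 2 was lowest, at 165.3. Of the 65 probe sets tested for these genes, 0 passed an unadjusted p of 0.05 in limma, and the smallest p was 0.0577, for a further probe set of nusap1. With the replicate number as a block that probe set passed, with an unadjusted limma p of 0.0399, and it was 1 of 65 against 7.41% of all tested probe sets.

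Although no gene passed, fitted values below 0 outnumbered those above: 42 of 51 were lower and 9 higher in the mutant, where 46.2% of all tested probe sets were lower. The median difference was -0.09 over the 51 genes and 0.02 over all tested probe sets. These genes are not independent of each other, and the count changed with single arrays. Mutant replicate 2 held the lowest reading for 30 of the 51 genes and was the lowest array for 22.8% of all tested probe sets. Sibling replicate 3 held the highest reading for 18 of the 51 and was the highest array for 17.6% of all. Without mutant replicate 2 the split was 30 lower and 21 higher with a median of -0.03, and without sibling replicate 3 it was 35 and 16 with a median of -0.05. The share lower was then 58.8% and 68.6%, against 46.7% and 49.6% of all tested probe sets. It thus shrank without either array but stayed above the share of all. Without mutant replicate 3 the median was -0.13.

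**Figure D3:**
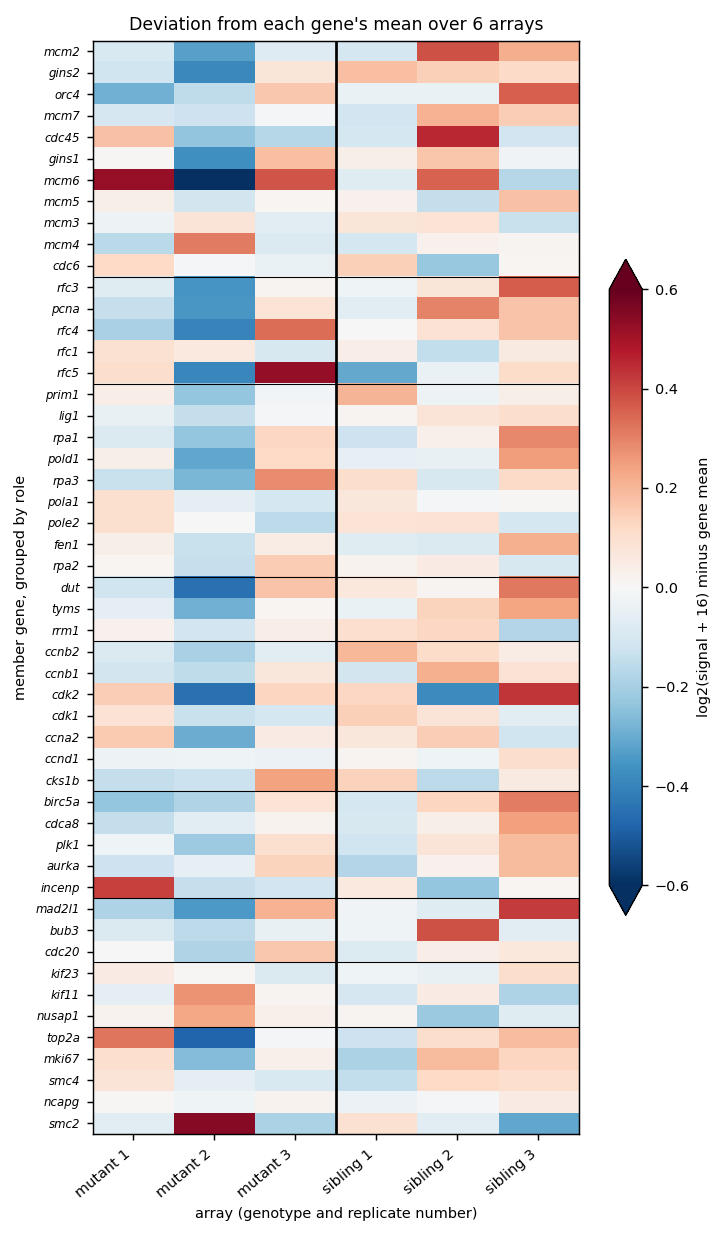
Deviation of log2(signal + 16) from each gene's mean over the 6 arrays, for the 51 measured genes grouped by role (rows) on the 3 mutant and then the 3 sibling arrays (columns); colours end at -0.6 and 0.6, which mcm6 in mutant replicate 2 exceeds. The mutant replicate 2 column is blue for most genes, with mcm4, kif11, nusap1 and smc2 in red, while the mutant replicate 1 and 3 columns are mixed.

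The scaling of the arrays moved this split too. After quantile normalization 36 of the 51 genes were lower (70.6%, against 52.3% of all tested probe sets), and with a common median on all arrays 46 were (90.2%, against 60.9%). In the deposited scaling the shares were 82.4% and 46.2%. The arrays differed at their bright end: the 99th percentile of signal was 10264, 9409 and 11143 in mutants and 10466, 12771 and 11814 in siblings, lowest in mutant replicate 2.

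Read by replicate number, the 51 genes had median differences of 0.0021 at number 1, -0.22 at number 2 and -0.10 at number 3, and 26, 10 and 15 of them were higher in the mutant. All 3 numbers gave a lower value for 14 genes and a higher value for 2 (kif11 and nusap1), where 14.7% and 16.2% of all tested probe sets did so. The genotypes did not overlap in 5 of the 51: lig1, gins2, ccnb2 and ccnd1 lay lower (4, against 3.04% of all tested probe sets) and nusap1 higher (1, against 3.71%). A gene without overlap has the same sign at all 3 numbers by arithmetic, so these 5 genes are in both counts.

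S-phase and mitotic genes were then set side by side, as 12 measured genes of the mcm, rfc, pcna and rrm groups and 7 of the cyclin B, Aurora, Polo, Bub and kinesin groups. The S-phase genes had a median difference of -0.06 with 9 of 12 lower, and the mitotic genes one of -0.10 with 6 of 7 lower. Neither class had a gene at an unadjusted p of 0.05. At replicate number 1 the medians were -0.02 for S-phase and 0.05 for mitotic genes, at number 2 they were -0.34 and -0.29, and at number 3 they were -0.10 and -0.06. Both classes were thus lowest at number 2, and the gap between them was -0.07, -0.05 and -0.04 at the 3 numbers, while the gap between the fitted medians was 0.04 in the other direction. The sign of that gap turns with how the median is taken, and it was far smaller than the range of single genes within either class.

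**Figure D4:**
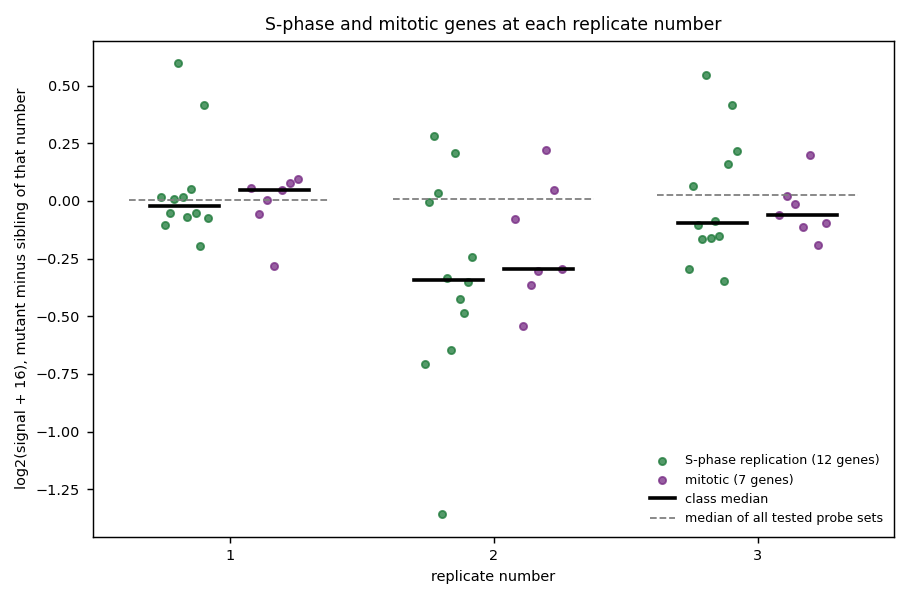
Difference in log2(signal + 16), mutant minus sibling of the same replicate number, for each of 12 S-phase replication genes (green) and 7 mitotic genes (purple) at the 3 replicate numbers, with class medians as black bars and the median of all tested probe sets as a dashed line. Both classes sit lowest at number 2, and the point near -1.36 is mcm6.

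Both class medians changed when single arrays were left out. For S-phase genes it was -0.09 without mutant replicate 1, -0.04 without mutant replicate 2, -0.13 without mutant replicate 3 and -0.13 without sibling replicate 3. For mitotic genes it was -0.03 without mutant replicate 2, -0.17 without mutant replicate 3, -0.18 without sibling replicate 1, -0.05 without sibling replicate 2 and -0.03 without sibling replicate 3. After quantile normalization the medians were 0.0047 for S-phase and -0.05 for mitotic genes, with 6 of 12 and 6 of 7 lower.

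Counts at an unadjusted p of 0.05 also changed with single arrays, for these genes and for the array as a whole. Without mutant replicate 3, pcna, rfc4, gins2 and dut passed it, all 4 lower in the mutant, and so did 11% of all tested probe sets. Without sibling replicate 1, mcm2 passed it, and so did 7.52% of all. The smallest adjusted p of any of the 51 genes over every alternative run was 0.413.

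Other genes of the same pathways were read from the same fit. Of 42 further replication genes, 28 were tested, 17 lower and 11 higher, with a median of -0.04. One, slbp, whose product binds histone messages made in S phase, passed an unadjusted p of 0.05 in limma, 1 of 28 against 3.03% of all tested probe sets. It was also the only one of the 28 to lie lower without overlap, against 3.04% of all, and 0 lay higher. It read 3412, 2607 and 2657 in mutants and 3510.4, 4064 and 4052 in siblings, a log2 difference of -0.43 ± 0.15 (SE; limma, adjusted p = 0.942). Its size was concentrated at numbers 2 and 3, -0.64 and -0.61, against -0.04 at number 1. The next by p were pola2, a polymerase alpha subunit gene (-0.26 ± 0.15), and pole3, a polymerase epsilon subunit gene (0.28 ± 0.16).

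Of 58 further mitosis genes, 40 were tested, 23 higher and 17 lower, with a median of 0.04 and 0 at an unadjusted p of 0.05 in limma. Those of smallest p were anln (0.34 ± 0.18), which encodes the cytokinetic ring protein anillin, the condensin II gene ncapd3 (0.24 ± 0.14) and the kinesin gene kif20bb (-0.31 ± 0.18). In all 3 the genotypes did not overlap, and kif20bb was near background. Of the 40 genes, 4 lay higher without overlap, against 3.71% of all tested probe sets, and 2 lower, against 3.04%.

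Of 44 regulators of the cycle, 27 were tested, 19 higher and 8 lower, with a median of 0.07 and 0 at an unadjusted p of 0.05 in limma. The gene e2f8, whose product in mammals represses S-phase genes, read 460.1, 636.2 and 371.9 in mutants and 463.2, 288.6 and 242.8 in siblings, a difference of 0.56 ± 0.27 (SE; limma, adjusted p = 0.942). The cyclin-dependent kinase inhibitor gene cdkn1bb read 581.7, 426.9 and 493.3 in mutants and 464.3, 372.4 and 324.4 in siblings (0.36 ± 0.19), and was higher at all 3 numbers. The third by p, e2f5, an E2F gene known in mammals as a repressor, differed by 0.43 ± 0.23 and was near background in siblings. With the replicate number as a block, e2f8 and cdkn1bb were past an unadjusted p of 0.05, as were slbp, the origin recognition gene orc5 (-0.34) and anapc11, a subunit gene of the anaphase-promoting complex (-0.38). That made 2 of 28, 1 of 40 and 2 of 27 in the 3 lists, against 7.41% of all tested probe sets, and 0 of them passed adjustment.

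Whole embryos were measured, so fewer dividing cells and less of a transcript per cell cannot be told apart. Markers of other tissues also differed between arrays, although none of the marker genes read passed adjustment in limma. Heart muscle markers, among them myl7, the gene whose promoter drives the reporter, were lower in 4 of 4 (median -1.04) and at all 3 replicate numbers in each, and all 4 passed an unadjusted p of 0.05, against 3.03% of all tested probe sets. Their sums were 180.2 to 479.3 in mutants and 469.5 to 1073 in siblings. Only 1 of the 4 read above every Tag control on all 6 arrays, so the sizes are not exact. The embryos were sorted by the heart reporter, so these heart values are not independent of how the groups were made. Ribosomal protein genes had lower fitted values in 16 of 16 (median -0.34), 14 of them at all 3 replicate numbers, and their summed signal ran from 260620.0 to 379670.0 in mutants and 314940.0 to 443150.0 in siblings, lowest in mutant replicate 2. Epidermis markers were lower in 6 of 7, with sums of 54160.0 to 74020.0 in mutants and 66921 to 80357 in siblings, also lowest in mutant replicate 2. Blood markers were higher in 6 of 6, with sums of 3898 to 14954 in mutants and 3188 to 4317 in siblings, and endothelium markers in 3 of 3 (median 0.63), with 256.6 to 834.0 in mutants and 200.9 to 386.1 in siblings. All sums given here weigh the brightest probe sets most. In mutant replicate 1, hbae3 (7812) and hbbe3 (6258) made up most of the blood sum of 14954. Skeletal muscle markers were higher in 8 of 9, with 6160 to 11356 in mutants and 6398 to 8072 in siblings. At numbers 1, 2 and 3 the medians were -1.06, -0.91 and -1.41 for heart muscle and -0.08, -0.77 and -0.21 for ribosomal protein genes. The shifts of blood, endothelium, skeletal muscle and epidermis markers were weaker or absent at replicate number 3. There 3 of 6 blood markers (median -0.01), 4 of 9 muscle markers (-0.02) and 2 of 3 endothelium markers (0.32) were higher. Of the epidermis markers, 4 of 7 were higher at that number (median 0.08). The blood and muscle sums were highest in mutant replicate 1, and 4 of 6 blood and 3 of 9 muscle markers passed an unadjusted p of 0.05 in limma. Only 3 of 6 blood, 1 of 3 endothelium and 6 of 9 muscle markers read above every Tag control on all 6 arrays. Neural progenitor markers, 5 of 7 higher, summed to 11822 to 12864 in mutants and 9977 to 12502 in siblings, and neuron markers, 4 of 6 lower, to 2819 to 3566 in mutants and 2954 to 3480 in siblings. The log2 ratio of 3' to 5' control probe sets of gapdh was 1.73, 2.05 and 2.08 in mutants and 1.78, 2.02 and 1.95 in siblings. That of actc1b was 2.18, 3.91 and 3.41 in mutants and 3.31, 3.77 and 3.69 in siblings, lowest in mutant replicate 1 and highest in mutant replicate 2. The part of these shifts in the readings of the replication and mitosis genes was not tested.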

How the data were processed

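The deposited file holds the authors' MAS5 intensities on a linear scale, named as MAS5 in the submitters' processing notes, with 1 value for each probe set on each array. Version, detection calls and genome build: not given in the sources used here. The mean of an array's values, trimmed by 2% at both ends, was 500.107 to 500.133. Of 15617 probe sets, 115 controls and then the lowest 25% by mean log2(signal + 16) were left out, which left 11626. The platform annotation named the genes, with symbols updated by gene identifier to the RefSeq gene table of assembly GRCz12tu.

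Mutants were compared with siblings in limma 3.58.1 (R 4.3.3, intensity trend, 2-sided), with Benjamini-Hochberg adjustment over all tested probe sets. The script was run on simulated data with independent noise for each value. That run leaves out shifts shared by a whole array, and no result here rests on it. The number of arrays limits the precision. A reading at or below an array's highest Tag control counted as background.

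The genes and lists were chosen with earlier results of these data known. Values on every array are given for the 4 brightest and the 4 of smallest p among S-phase and among mitotic genes, and for the 6 of smallest p among the rest; 3 of smallest p are named per further list. Other genes are given by fitted value, and those singled out for overlap or scatter were chosen after their values were seen.

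Both genotypes share replicate numbers in the labels. Deviations from the genotype means correlated at 0.193, 0.119 and 0.482 within numbers 1, 2 and 3, all above 0.1. The main fit has no block, and the fit with the number as a block was an alternative. The labels do not state this pairing, and mutant 2 correlated slightly better with sibling 1 (0.203). Alternatives covered the offset, filter, scaling, block, array weights, probe set choice and left-out arrays. Promoter and protein sequences were not analysed here.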

Additional observations from a re-analysis of the deposited data

How the results depend on the processing

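Over 18 alternatives, the count of replication and mitosis genes past the adjusted threshold stayed at 0, and of the 51 genes 21 kept the sign of their fitted difference under every one. The replicate block, that is the fit with pairing by number, gave 0 genes of the list past either threshold, 1 probe set overall past the adjusted one and the same medians, and it changed no call on the brightest probe set of the 51 genes. At an unadjusted p of 0.05, 1 gene of the list passed with a common median (mcm2), without both arrays of number 1 (1 gene, mcm2) and without both arrays of number 2 (1 gene, mcm6, higher), and 0 to 4 passed with 1 array left out. In the same order, 3.11%, 4.08% and 1.26% of all tested probe sets passed, and 1.32% to 11% with 1 array left out. Probe sets past the adjusted threshold over the whole array numbered 0 without both arrays of number 1, of number 2 or of number 3, and 0 to 20 with 1 array left out. The 5 genes whose genotypes did not overlap became 3 after quantile normalization, 19 without number 1, 20 without number 3 and 6 to 16 with 1 array left out, where fewer arrays make separation easier. The matching shares of all tested probe sets are not given here, so these counts cannot be read as particular to the genes. The S-phase minus mitotic gap of 0.04 was 0.060 with an offset of 64 or with array weights, 0.076 without number 1, -0.055 without number 2, -0.059 without number 3, and -0.10 to 0.10 with 1 array left out; the cause was not tested. The sign turned for mcm5 after quantile normalization (0.029) and without number 3 (0.022), with -0.12 to 0.037 over single arrays left out, and for plk1 without number 2 (0.00043). The class medians ran from -0.13 to -0.04 for S-phase and -0.18 to -0.03 for mitotic genes with 1 array left out. With both arrays of number 1, 2 or 3 left out, the S-phase medians were -0.11, -0.06 and -0.16. The mitotic medians were then -0.19, -0.0064 and -0.10. The 9 further pathway genes, whose alternatives were added after seeing the data, kept their sign throughout. A dim probe set limits mcm6 and top2a, which were not tested with the lowest 50% left out.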
